A study of Mus musculus with 16 samples.

Results

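The genes described here are 9 that encode cargo of neutrophil secondary and tertiary granules, namely Ltf, Lcn2, Camp, Ngp, Chil3, Cd177, Lrg1, Mmp8 and Mmp9. They were found by symbol and were all present in both tables of normalized counts, 9 of 13344 genes in stroma and 9 of 15080 genes in tumor. The bone marrow of leukemic wild-type (WT) mice and of mice lacking IL-6 (IL-6 KO) was compared, with 4 libraries for each genotype and sorted compartment and 16 libraries in all. Every one of the 4 groups carried the same transplanted B-cell acute lymphoblastic leukemia (B-ALL), a luciferase+ cell line that is BCR-ABL+ and Arf-/- and was labeled with a retroviral mCherry vector, so that the groups of a compartment differed in the host. WT and IL-6 KO hosts were C57BL/6J mice, bought at 6 to 8 weeks of age, which received 500000 leukemic cells by tail vein and gave femur and tibia marrow 8 days later without any drug. After red cell lysis, live single cells were sorted into mCherry+ cells (tumor) and mCherry- cells (stroma), so stroma here is all marrow outside the leukemia and mostly blood cells. No source gives which tumor and stroma libraries of a genotype came from 1 mouse, and IL-6 RNA was not analysed here, so the host genotype was taken from the labels.

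Neutrophils fill their granules in the order in which they mature in the marrow. Primary granules are loaded in promyelocytes, secondary (specific) granules in myelocytes and metamyelocytes, and tertiary (gelatinase) granules in band cells, and the RNAs for each cargo are made mostly at that stage and then shut off. Their transcription depends on the C/EBP family, with C/EBP epsilon needed for secondary granules, and their RNAs are commonly used as marks of the neutrophil lineage.

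In mCherry+ cells most of the granule genes were higher in IL-6 KO than in WT mice. Of the 9 genes, 8 rose in IL-6 KO tumor at an adjusted p under 0.05 over all genes (limma on log2 of the normalized count plus 1), and all 8 in the same direction. Among all 14493 genes tested in tumor, 19.8% passed in either direction and 10.6% passed in the higher direction. Mean normalized counts were between 1.84 times (Mmp8) and 4.92 times (Lrg1) as high in IL-6 KO as in WT tumor, and the median log2 fold change of the 9 genes was 1.93 beside -0.0059 over all genes tested. In stroma 0 of 9 passed (limma, adjusted p between 0.364 and 0.999, 3 of 9 with an unadjusted p under 0.05, beside 9.15% of all genes with such a p), and 0.0082% of the 12202 genes tested did. The genes differed in level there, with median ranks in WT stroma from 64 (Ltf) to 6111 (Lrg1) among the 11797 genes in both tables. All 9 genes passed the filter on low values in both tables. Because cells were sequenced in bulk, a larger share of granule-gene-expressing cells and more RNA in each of them cannot be told apart, and since the sources do not tie libraries to separate animals, the p-values measure the spread between these libraries.

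**Figure D1:**
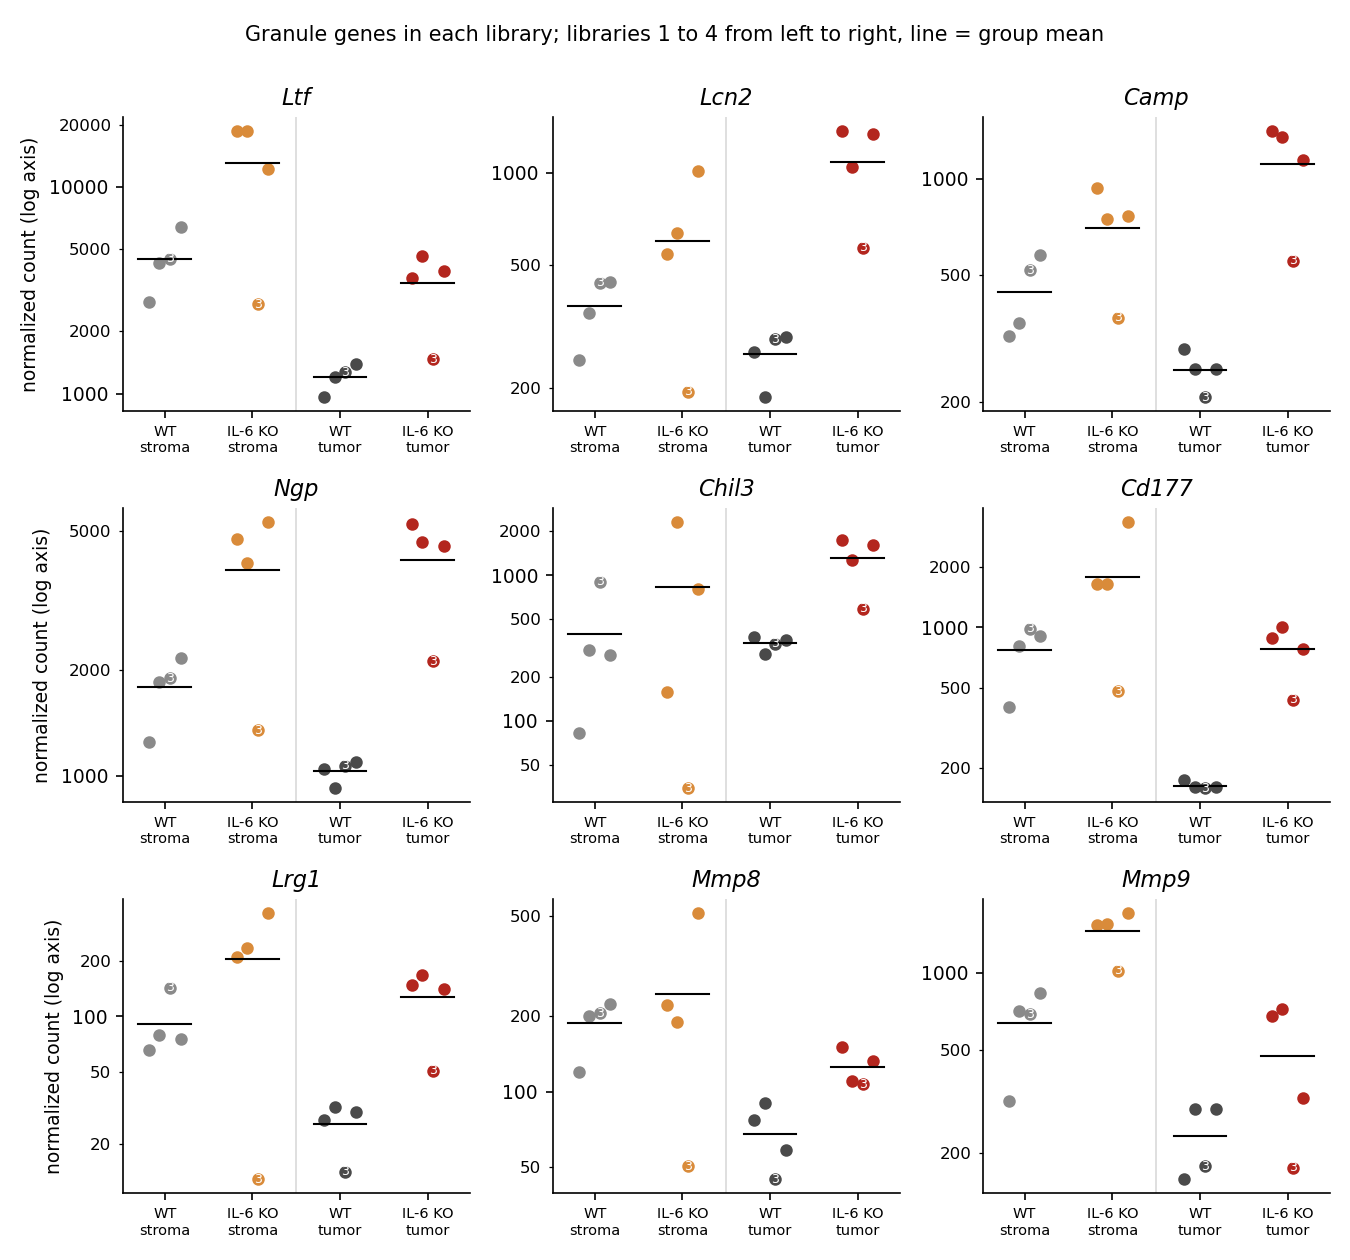
Normalized count of each of the 9 granule genes (log axis) in the 4 libraries of WT stroma, IL-6 KO stroma, WT tumor and IL-6 KO tumor, libraries 1 to 4 from left to right, with library 3 marked and a line at the group mean. Stroma and tumor were normalized separately, so heights are compared only within a compartment. IL-6 KO stroma 3 is the lowest of its group for 9 of 9 genes, and IL-6 KO tumor 3, a separate library, is the lowest of its group for 9 of 9.

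Ltf encodes lactoferrin, an iron-binding protein that is the classic cargo of secondary granules (ENSMUSG00000032496.7, chr9:111019271-111042767, plus strand, GRCm38). In tumor its normalized counts were 963, 1208, 1270 and 1394 in WT libraries 1 to 4, and 3639, 4616, 1472 and 3925 in IL-6 KO libraries 1 to 4. Every IL-6 KO tumor library was above every WT one, though library 3 was only 1.06 times the highest WT library. The log2 fold change was 1.39 ± 0.31 (SE, adjusted p = 0.0142 by limma). In stroma the counts were 2780, 4283, 4486 and 6399 in WT, and 18709, 18524, 2711 and 12261 in IL-6 KO mice. Of the IL-6 KO stroma libraries, 3 were above all WT libraries, and library 3 was below all of them. The log2 fold change in stroma was 1.27 ± 0.55 (SE, adjusted p = 0.518 by limma).

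Lcn2 encodes lipocalin 2, which withholds iron from bacteria by binding their siderophores (ENSMUSG00000026822.14, chr2:32384633-32388252, minus strand). Its tumor counts were 262, 186, 288 and 293 in WT and 1373, 1044, 570 and 1338 in IL-6 KO mice. The groups did not overlap, and the lowest IL-6 KO library was 1.95 times the highest WT library. Lcn2 rose by a log2 fold change of 2.01 ± 0.27 in tumor (SE, adjusted p = 0.00213 by limma). Stroma held 245, 350, 439 and 440 in WT and 545, 638, 194 and 1016 in IL-6 KO mice, so that 3 IL-6 KO libraries were above the WT range and library 3 was below it. The stroma log2 fold change was 0.51 ± 0.47 (SE, adjusted p = 0.763 by limma).

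Camp encodes the cathelicidin precursor, cut on release into an antimicrobial peptide (ENSMUSG00000038357.10, chr9:109847379-109849617, minus strand). Tumor counts of Camp were 293, 255, 207 and 254 in WT and 1414, 1351, 553 and 1142 in IL-6 KO mice, with no overlap. It rose by a log2 fold change of 2.06 ± 0.27 in tumor (SE, adjusted p = 0.00193 by limma). Stroma counts were 323, 353, 517 and 576 in WT and 932, 748, 367 and 764 in IL-6 KO mice. There, IL-6 KO stroma 3 lay inside the WT range and the other 3 libraries above it, and the log2 fold change of 0.63 ± 0.37 (SE, adjusted p = 0.615 by limma) did not pass.

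Ngp encodes neutrophilic granule protein, a relative of the cathelicidins with a cystatin-like fold (ENSMUSG00000032484.8, chr9:110419747-110423012, plus strand). Its tumor counts were 1046, 920, 1067 and 1095 in WT and 5242, 4678, 2123 and 4553 in IL-6 KO mice. WT tumor libraries were close to each other and the lowest IL-6 KO library was 1.94 times the highest of them. The log2 fold change in tumor was 1.93 ± 0.24 (SE, adjusted p = 0.00175 by limma). Stroma counts were 1249, 1855, 1901 and 2166 in WT and 4753, 4051, 1348 and 5333 in IL-6 KO mice. Again only IL-6 KO stroma 3 fell among the WT libraries, and the log2 fold change was 0.96 ± 0.42 (SE, adjusted p = 0.518 by limma).

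Chil3 encodes Ym1, a chitinase-like lectin of neutrophils and of some macrophages (ENSMUSG00000040809.10, chr3:106147554-106167564, minus strand). In tumor it measured 377, 286, 337 and 358 in WT and 1742, 1274, 590 and 1622 in IL-6 KO mice, with no overlap. The tumor log2 fold change was 1.83 ± 0.30 (SE, adjusted p = 0.00421 by limma). In stroma Chil3 was the most uneven of the 9 genes, at 82.2, 307, 902 and 282 in WT and 158, 2332, 34.3 and 804 in IL-6 KO mice. Only IL-6 KO stroma 2 exceeded the WT range, and the log2 fold change of 0.17 ± 1.07 (SE, adjusted p = 0.977 by limma) changed sign when WT library 1, IL-6 KO library 2 or IL-6 KO library 4 was left out, with values between -0.78 and 1.23 over the 8 libraries left out in turn.

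Cd177 encodes a GPI-anchored surface glycoprotein that neutrophils also store in secondary granules (ENSMUSG00000052212.6, chr7:24743983-24760311, minus strand). Its tumor counts were 174, 160, 158 and 160 in WT and 889, 1007, 435 and 780 in IL-6 KO mice. The groups were widely separated, the lowest IL-6 KO library being 2.50 times the highest WT library. Cd177 had the smallest p of the 9 genes in tumor, with a log2 fold change of 2.18 ± 0.23 (SE, adjusted p = 8.01e-04 by limma). Stroma counts were 399, 808, 984 and 901 in WT and 1638, 1635, 480 and 3357 in IL-6 KO mice. IL-6 KO stroma 3 was within the WT range and the others above it, with a log2 fold change of 0.98 ± 0.52 (SE, adjusted p = 0.583 by limma).

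Lrg1 encodes leucine-rich alpha-2-glycoprotein, a secreted protein found in neutrophil granules and made by the liver in the acute phase (ENSMUSG00000037095.8, chr17:56119678-56122001, minus strand). It had the lowest level per kb of the 9 genes in WT tumor, with normalized counts of 27.4, 32.0, 14.2 and 29.9, and measured 149, 168, 50.6 and 142 in IL-6 KO tumor. No library overlapped, and Lrg1 rose by a log2 fold change of 2.18 ± 0.41 (SE, adjusted p = 0.00732 by limma). In stroma it measured 65.9, 79.6, 143 and 75.2 in WT and 212, 236, 12.9 and 368 in IL-6 KO mice. IL-6 KO stroma 3 was far below every other stroma library, and the log2 fold change was 0.53 ± 0.85 (SE, adjusted p = 0.884 by limma). It went from 0.016 without IL-6 KO library 4 to 1.59 without IL-6 KO library 3, and was 0.21 after removal of the trend with GC content and length.

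Mmp8 and Mmp9 encode the metalloproteinases of the later granules, the neutrophil collagenase and gelatinase B (Mmp8, ENSMUSG00000005800.3, chr9:7558456-7568485, plus strand, and Mmp9, ENSMUSG00000017737.2, chr2:164940780-164955850, plus strand). They had the smallest fold changes of the 9 genes in tumor. Mmp8 measured 77.4, 90.1, 44.8 and 58.7 in WT tumor and 150, 110, 107 and 132 in IL-6 KO tumor, with no overlap and a log2 fold change of 0.91 ± 0.24 (SE, adjusted p = 0.0276 by limma). That call was lost when WT library 3, WT library 4, IL-6 KO library 1 or IL-6 KO library 4 was left out (limma adjusted p = 0.0639, 0.0618, 0.0827 and 0.0756). Mmp9 measured 157, 296, 177 and 297 in WT tumor and 677, 726, 175 and 326 in IL-6 KO tumor. Here IL-6 KO tumor 3 lay inside the WT range, and the log2 fold change of 0.87 ± 0.43 (SE, adjusted p = 0.178 by limma) had a 95% interval from -0.09 to 1.84. Without IL-6 KO library 3 it was 1.28 (limma adjusted p = 0.0360), so this library decided the call.

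In stroma the pair held the largest and the smallest p of the 9 genes. Mmp8 measured 120, 200, 205 and 223 in WT and 222, 189, 50.5 and 514 in IL-6 KO stroma. IL-6 KO stroma 3 was below the WT range, IL-6 KO stroma 4 above it, and the log2 fold change was 0.00089 ± 0.59 (SE, adjusted p = 0.999 by limma). Mmp9 measured 318, 712, 692 and 833 in WT and 1537, 1552, 1018 and 1713 in IL-6 KO stroma. Of the 9 genes it alone had every IL-6 KO stroma library above every WT one, a pattern that 2.54% of all genes tested in stroma showed. Its log2 fold change was 1.25 ± 0.35 (SE, adjusted p = 0.364 by limma). Its unadjusted limma p of 0.00385 was the smallest of the 9 genes in stroma. In tumor the same pattern held for 8 of the 9 genes, all but Mmp9, beside 13.6% of all genes tested.

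**Figure D2:**
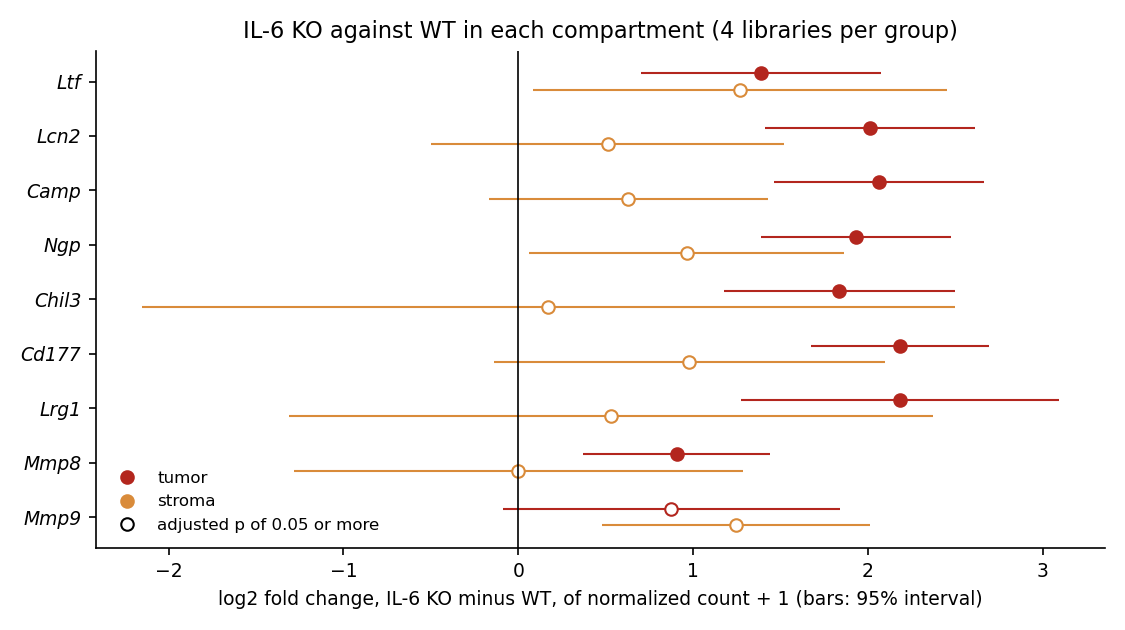
Log2 fold change of each granule gene, IL-6 KO minus WT, on the scale of log2(normalized count + 1), in tumor and in stroma, with 95% intervals from limma (4 libraries per group); open points have an adjusted p of 0.05 or more. In tumor 8 of 9 points are filled, between 0.91 (Mmp8) and 2.18 (Cd177 and Lrg1), and in stroma all 9 are open, with a wider interval than in tumor for each gene but Mmp9.

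All 9 log2 fold changes were positive in both compartments, although that of Mmp8 in stroma was at 0 and changed sign under other scalings. Their median in stroma was 0.63, beside -0.013 over all genes tested. The difference in calls between the compartments is not a test of a difference in effect, since stroma and tumor were fitted separately and their difference was not tested. The spread did differ, with a median residual SD of log2 values over all genes of 0.857 in stroma and 0.212 in tumor.

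IL-6 KO stroma 3 was the lowest of its group for 9 of 9 genes, as was IL-6 KO tumor 3 for 9 of 9, and WT stroma 1 was the lowest of its group for 9 of 9. Libraries of the same number in stroma and tumor are separate libraries, and no source gives whether they came from 1 mouse. IL-6 KO stroma 4 was the highest of its group for 6 genes and WT stroma 4 for 6, while the highest IL-6 KO tumor library was library 1 for 5 genes and library 2 for 4. In WT tumor no single library was lowest, the low values being divided between libraries 1 (2 genes), 2 (3 genes) and 3 (4 genes). Left out, IL-6 KO library 3 took the median log2 fold change of the 9 genes from 0.63 to 1.41 in stroma, with 0 of 9 genes called, and from 1.93 to 2.22 in tumor, with 9 of 9 called. The ratios of means were then between 1.65 and 3.68 in stroma and between 1.93 and 5.91 in tumor. The summed erythroid markers (9 genes, hemoglobins, Alas2 and others) were highest of their group in IL-6 KO library 3 in both compartments, at 400370 normalized counts beside 85878 to 237860 in the other IL-6 KO stroma libraries, and at 4501 beside 1379 to 2797 in tumor. The part of the erythroid markers in the low values of IL-6 KO stroma 3 and IL-6 KO tumor 3 was not tested.

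Normalized counts over all genes, each on the scale of its own table, summed to 8805689 to 17470735 per library for WT stroma and to 33973016 to 44191950 for IL-6 KO stroma. In tumor they summed to 38817792 to 44552085 for WT and to 47267047 to 55592959 for IL-6 KO mice, so the genotypes did not overlap in either compartment. In each library 1 noncoding RNA led, holding 20.3% to 50.1% of that sum in WT stroma, 61.5% to 79.0% in IL-6 KO stroma and 13.1% to 22.7% in tumor. Its part in the stroma values of the granule genes was not tested. The read depth of a single library cannot be read from these values.

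Levels of different genes were compared per kilobase of transcript. In WT stroma the mean was highest for Ltf (1636 ± 541 normalized counts per kb, SD, n = 4) and Ngp (1467 ± 317), whose libraries overlapped, and Ngp stood clear of Camp (584 ± 163). Camp, Lcn2, Cd177, Chil3 and Mmp9 formed a run of overlapping neighbors, and after a gap Mmp8 (77.1 ± 19.0) and Lrg1 (64.6 ± 25.0) came last and overlapped. IL-6 KO stroma began with Ltf (4758 ± 2740), Ngp (3168 ± 1442) and Camp (927 ± 315) as well, and its only gap between neighbors lay between Mmp9 (458 ± 95.2) and Lrg1 (147 ± 104). Tumor had another order. Ngp led in WT tumor (845 ± 63.4) with a gap to Ltf (441 ± 66.1), and in IL-6 KO tumor Ngp (3395 ± 1132) was followed by Camp (1471 ± 517), Ltf (1244 ± 495) and Lcn2 (1182 ± 406), which overlapped each other. In both tumor groups Mmp8 and Lrg1 were the last pair.

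Because each compartment had its own scale, the composition of the granule genes was set side by side as each gene's part of the 9 genes' sum per kb in the same library, over 8 stroma and 8 tumor libraries and with no test. Ltf made up 36.0% ± 7.58 (SD, n = 8) in stroma and 16.6% ± 3.50 in tumor, and the highest tumor library (20.7%) was below the lowest stroma library (28.7%). Cd177 also had a smaller part in every tumor library than in any stroma library (2.99% ± 0.50 and 5.67% ± 1.57). Ngp (37.9% ± 1.68 in tumor, 29.4% ± 3.55 in stroma) and Lcn2 (12.9% ± 1.79 and 7.02% ± 1.69) had a larger one in every tumor library. The mix in sorted leukemic cells thus held relatively less Ltf and Cd177 and more Ngp and Lcn2 than the mix in stroma. The parts of Camp, Chil3, Lrg1, Mmp8 and Mmp9 overlapped between the compartments. Without division by length Ltf took a larger part in every group, at 48.8% of the sum in WT stroma and 33.7% in WT tumor.

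The parts also varied by genotype and library. In tumor Ltf made up 19.2% ± 2.56 (SD, n = 4) in WT and 14.1% ± 2.13 in IL-6 KO mice, and in stroma 32.7% ± 3.50 and 39.3% ± 9.63. IL-6 KO stroma 1 and 2 held the largest parts of Ltf, 48.8% and 46.2%, and IL-6 KO stroma 3 held the largest part of Mmp9, 9.61%. Chil3 ranged from 0.668% to 10.4% of the sum in IL-6 KO stroma, but only from 8.25% to 10.8% over all 8 tumor libraries.

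**Figure D3:**
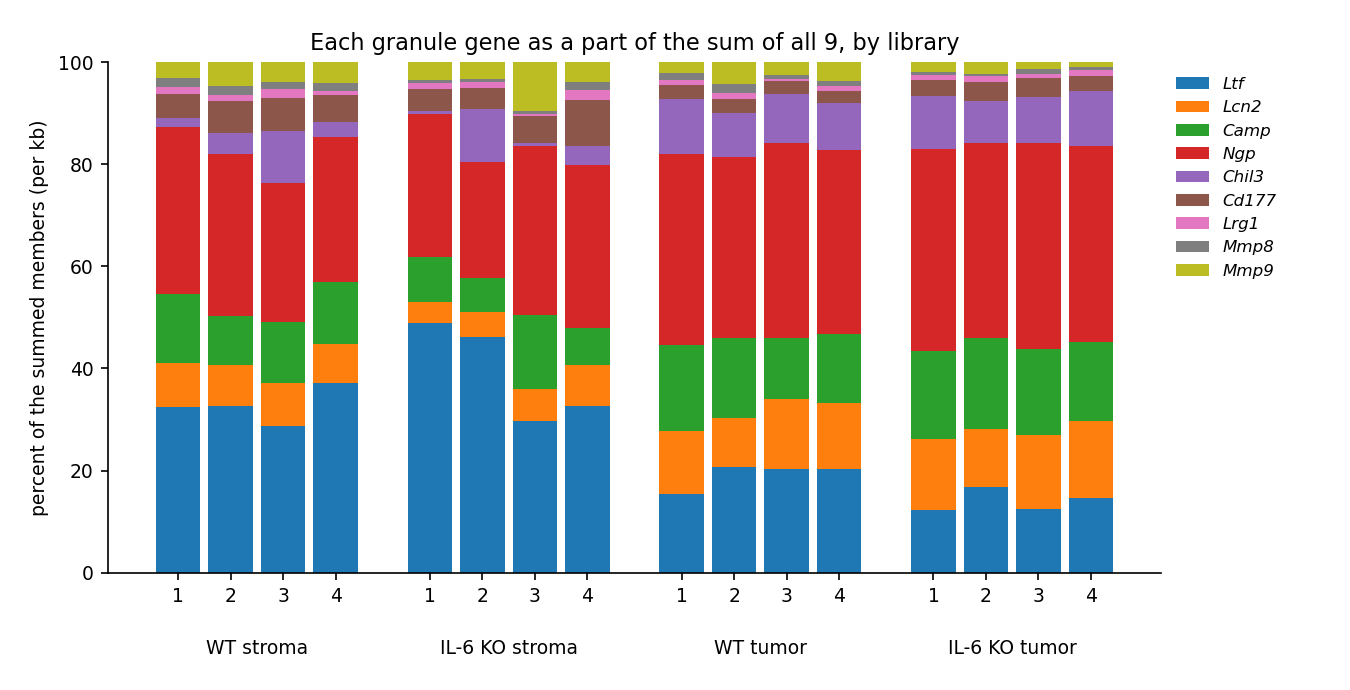
Each granule gene as a percent of the summed 9 genes (normalized counts per kb), stacked for each of the 16 libraries. Ltf fills 28.7% to 48.8% of the bar in stroma and 12.3% to 20.7% in tumor, and Ngp is the largest part in every tumor library.

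The amount of granule RNA was set against 2 other sums of the same library, again with no test between the compartments. As a percent of the summed B-lineage markers per kb, the 9 genes came to 2.56%, 2.48%, 2.70% and 2.85% in WT tumor libraries 1 to 4 and to 10.4%, 11.0%, 4.15% and 9.26% in IL-6 KO tumor. Every IL-6 KO tumor library was above the WT range, with library 3 nearest to it. In stroma the same ratio was between 937% and 1593% in WT and between 992% and 6314% in IL-6 KO mice. By rank among the 11797 genes in both tables, where 1 is the most abundant, Ltf had a median rank of 64 in WT stroma, 18 in IL-6 KO stroma, 5024 in WT tumor and 1889 in IL-6 KO tumor. Ngp had median ranks of 249, 69, 5534 and 1503 in the same order.

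Against S100a8 and S100a9, the calprotectin subunits that fill the cytosol of mature neutrophils, the 9 genes were also higher in IL-6 KO than in WT tumor. They summed to 66.2% ± 9.44 (SD, n = 4) of S100a8 plus S100a9 in WT tumor, with libraries between 53.8% and 73.8%, and to 118% ± 12.5 in IL-6 KO tumor, with libraries between 105% and 130%. Of the 9 genes, 6 (Lcn2, Camp, Ngp, Chil3, Cd177 and Lrg1) had a ratio to S100a8 plus S100a9 that was higher in every IL-6 KO tumor library than in any WT one, IL-6 KO tumor 3 included, as did 0.345% of all genes tested in tumor. S100a8 plus S100a9 came to 4.05% of the B-lineage markers per kb in WT tumor and 7.37% in IL-6 KO tumor (means). An unchanged gene therefore tends to have a lower ratio in IL-6 KO tumor, and 0.345% is not a share of rising genes. Without the ratio 13.6% of all genes tested in tumor showed the pattern. The 2 genes of the denominator differed, since S100a8 did not pass in tumor (log2 fold change 0.41 ± 0.20 SE, adjusted p = 0.174 by limma) and S100a9 rose. In IL-6 KO tumor 3, S100a8 (588) was below the WT libraries (650 to 826), and S100a9 (1393) was above them (892 to 1174). Their sum there was 3.76% of the B-lineage markers per kb, inside the WT range of 3.66% to 4.62%. Cd177 had the tightest ratio, at 1.79%, 1.48%, 1.88% and 1.73% in WT and 3.95%, 3.88%, 4.12% and 3.77% in IL-6 KO tumor. Mmp8 was at 0.784% ± 0.158 and 0.766% ± 0.272, Mmp9 at 2.07% ± 0.601 and 1.93% ± 0.641, and Ltf at 12.7% ± 2.65 and 16.5% ± 2.15, with overlap for all 3. In stroma 2 of the 9 genes, Ngp and Mmp9, had a ratio that was higher in every IL-6 KO library, beside 0.672% of all genes tested in stroma. Without the ratio 2.54% of all genes tested in stroma showed the pattern. Ngp was at 24.7% ± 4.12 in WT and 36.6% ± 9.35 in IL-6 KO mice, and for Mmp9 the lowest IL-6 KO library (4.35%) was just above the highest WT one (4.31%).

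**Figure D4:**
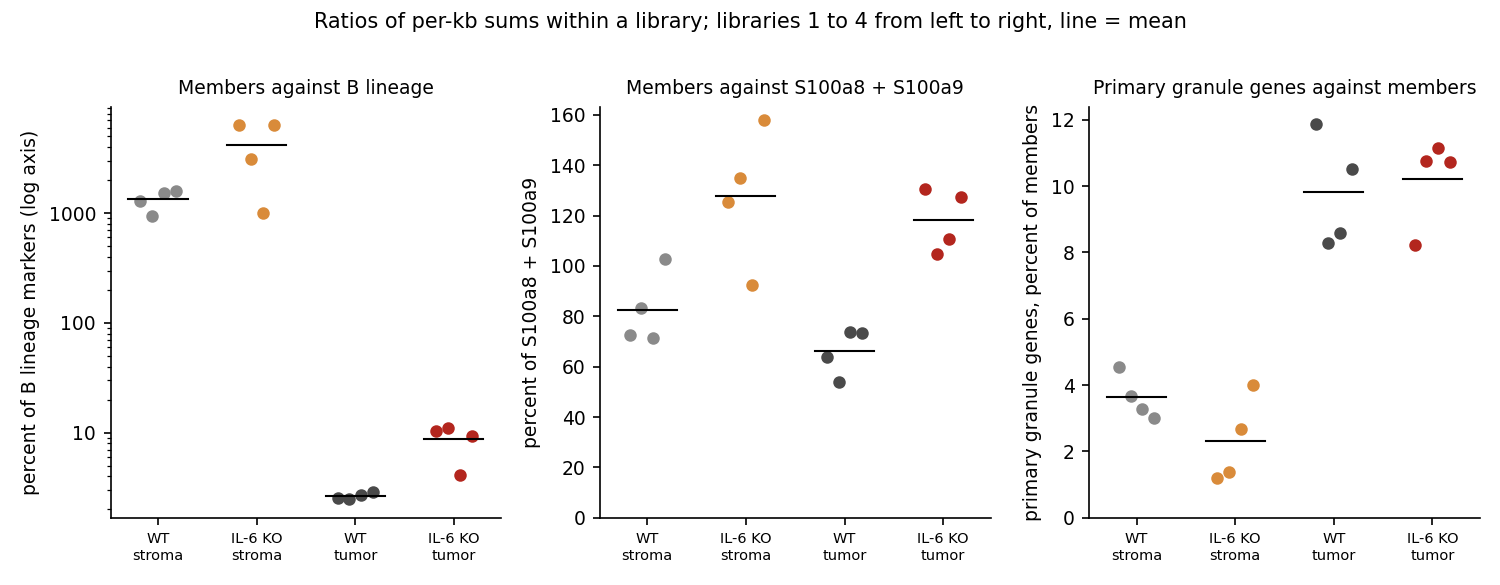
Ratios of summed normalized counts per kb within each library, for the 9 granule genes as a percent of 10 B-lineage markers (left, log axis), the 9 genes as a percent of S100a8 plus S100a9 (middle) and 5 primary granule genes as a percent of the 9 genes (right), with a line at the mean of 4 libraries. The granule genes are between 2.48% and 11.0% of the B-lineage sum in tumor, IL-6 KO tumor lies above WT tumor in the left and middle panels, and primary granule genes weigh more in every tumor library than in any stroma library.

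Genes of the primary granules moved with the 9 genes in tumor. All 5 on a list of that stage (Mpo, Elane, Prtn3, Ctsg and Ms4a3) rose in IL-6 KO tumor, with a median log2 fold change of 1.97. Of all genes tested in tumor, 10.6% were called higher. Ms4a3 had means of 4.09 in WT and 33.9 in IL-6 KO tumor, so it passed the filter on low values (a mean over 10) only through the IL-6 KO libraries. Mpo, the myeloperoxidase that makes hypochlorous acid, went from 202 ± 47.7 (SD, n = 4) to 805 ± 230 normalized counts, a log2 fold change of 1.97 ± 0.24 (SE, adjusted p = 0.00161 by limma). Ctsg, the serine protease cathepsin G, went from 17.1 ± 2.96 to 106 ± 51.8 (log2 fold change 2.43 ± 0.38 SE, adjusted p = 0.00385 by limma). In stroma 0 of these 5 genes passed (limma; 1 with an unadjusted p under 0.05, Ms4a3, beside 9.15% of all genes tested). Ms4a3 had means of 2.12 in WT and 28.1 in IL-6 KO stroma, so there too it passed the filter only through the IL-6 KO libraries. Set against the 9 granule genes per kb, the primary granule genes came to 9.81% ± 1.68 in WT tumor and 10.2% ± 1.33 in IL-6 KO tumor, beside 3.63% ± 0.67 in WT stroma and 2.31% ± 1.30 in IL-6 KO stroma. The lowest tumor library (8.24%) was above the highest stroma library (4.55%), so the mCherry+ sort held relatively more RNA of the early granule stage than stroma did, in both genotypes.

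Other cargo and partners of the later granules rose in part. Of 12 such genes, 11 were tested in tumor and 6 rose in IL-6 KO mice, with 0 lower and a median log2 fold change of 0.77. Over all genes tested in tumor 10.6% were called higher. Pglyrp1, a peptidoglycan-binding granule protein, had a log2 fold change of 1.49 ± 0.26 (SE, adjusted p = 0.00551 by limma), and Hp, haptoglobin, of 2.06 ± 0.36 (SE, adjusted p = 0.00585 by limma). Cyba, a membrane subunit of the phagocyte oxidase, rose by 0.63 ± 0.13 (SE, adjusted p = 0.00949 by limma), and Orm1, an acute-phase glycoprotein, by 2.95 ± 0.62 from counts of at most 5.19 in WT tumor (SE, adjusted p = 0.0119 by limma). Cyba was above Ltf in WT tumor (means of 2994.9 and 1208.5) but below it in WT stroma (126.71 and 4487). Which cells of the tumor sort held the Cyba RNA was not tested. In stroma all 12 were higher in IL-6 KO mice, with a median log2 fold change of 0.62 beside -0.013 over all genes tested. None of them passed (limma; 4 with an unadjusted p under 0.05, beside 9.15% of all genes tested).

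Among 10 regulators of late granulopoiesis, 3 rose in IL-6 KO tumor and 0 fell, beside 10.6% of all genes tested that were called higher. Cebpa, a factor that commits progenitors to the granulocyte path, went from 16.4 ± 5.13 (SD, n = 4) to 77.9 ± 19.2 normalized counts (log2 fold change 2.20 ± 0.31 SE, adjusted p = 0.00263 by limma). Cebpe, which encodes C/EBP epsilon, measured 27.9, 7.24, 29.2 and 15.7 in WT and 111, 162, 37.8 and 118 in IL-6 KO tumor (log2 fold change 2.36 ± 0.53 SE, adjusted p = 0.0145 by limma). IL-6 KO tumor 3 was again the lowest of its group for both. Il6ra, the IL-6 receptor chain, rose by 0.65 ± 0.11 (SE, adjusted p = 0.00545 by limma), and Cebpb missed the threshold at 1.30 ± 0.42 (SE, adjusted p = 0.0544 by limma). Mean counts of Il6ra and Ltf were 430.25 and 1208.5 in WT tumor, and 150.04 and 4487 in WT stroma. Which cells of the tumor sort held the Il6ra RNA was not tested. In stroma 0 of the 10 passed (limma; 1 with an unadjusted p under 0.05, Cebpa, at a log2 fold change of 1.42, beside 9.15% of all genes tested). Of 8 tested receptors, ligands and inhibitors of the granule proteins, Fpr2, a receptor for the cathelicidin peptide, rose in tumor (log2 fold change 1.37 ± 0.38 SE, adjusted p = 0.0321 by limma) and the other 7 did not pass.

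RefSeq promoters (250 bases before to 50 after the start, GRCm38.p6) were on hand for 8 of the 9 genes, and since C/EBP factors are the known regulators of this stage, they were searched on both strands for the C/EBP letters TTGCNNAA. The letters stood in 4 of the 8 promoters (Ltf, Lcn2, Mmp8 and, with 2 matches, Ngp), beside 10.8% of all 32851 promoters of this length. The STAT letters TTCNNNGAA stood in 1 of 8 (Chil3) beside 8.30% of all, the PU.1 letters GAGGAA in 4 of 8 beside 28.3%, and the TATA box letters TATAAA in 4 of 8 beside 13.6%. From the start, the TATAAA matches began at base -40 in Cd177, -3 in Chil3, -3 in Mmp8 (minus strand) and 12 in Lrg1. Their count is one of letters at any place in the window and not of TATA boxes. None of the C/EBP matches overlapped a match of another motif. A match is a description of the sequence and does not show a bound site, and the absence of a match says only that these letters are not in the window. The match of Lcn2 and the second match of Ngp fall in bases that GENCODE vM21 lists as exon and are not shown. For the other 3 genes the stretch just upstream is given from 5′ to 3′ with the C/EBP letters in capitals, at chr9:111019171-111019270 (Ltf), chr9:110419624-110419723 (Ngp) and chr9:7558329-7558428 (Mmp8), all on the plus strand and outside annotated exons, with the match starting 75, 138 and 19 bases before the RefSeq start. The Ltf match reads on the minus strand, so its capitals are the reverse complement of the letters searched.
Ltf: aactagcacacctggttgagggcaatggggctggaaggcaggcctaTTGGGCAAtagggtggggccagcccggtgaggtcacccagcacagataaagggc
Ngp: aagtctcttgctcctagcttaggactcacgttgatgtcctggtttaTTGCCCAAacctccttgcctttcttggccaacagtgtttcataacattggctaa
Mmp8: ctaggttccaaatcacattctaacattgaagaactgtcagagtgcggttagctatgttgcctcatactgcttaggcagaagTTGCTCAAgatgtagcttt

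Of the 9 genes, 4 lie on chromosome 9, and Camp, Ngp and Ltf among them fall within 1195 kb. All 9 are protein-coding genes with no overlapping gene in GENCODE vM21. No transcript of another gene matched any of them at 97% identity or more over at least 150 nucleotides, the closest being Gm6522 to Chil3 (94.96% over 1171 nucleotides) and Gm4763 to Cd177 (96.0% over 303 nucleotides), neither of which was listed in either table.

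Markers of other marrow cells moved with the granule genes in tumor to differing degrees, beside 10.6% of all genes tested that were called higher. Of 8 tested mature neutrophil markers 5 rose and 0 fell (median log2 fold change 1.15), with summed counts between 2060 and 2564 in WT and between 2948 and 6004 in IL-6 KO tumor. S100a9 rose by 1.30 ± 0.26 (SE, adjusted p = 0.00921 by limma) and Ly6g, the surface marker of mouse neutrophils, by 1.93 ± 0.50 (SE, adjusted p = 0.0246 by limma). Ly6g had means of 6.94 in WT and 28.3 in IL-6 KO tumor, so it passed the filter on low values (a mean over 10) only through the IL-6 KO libraries. Of 6 monocyte markers 3 rose (median 1.25), with sums between 1857 and 2227 in WT and between 2897 and 6445 in IL-6 KO tumor, led by Lyz2, the lysozyme of myeloid cells (log2 fold change 1.28 ± 0.18 SE, adjusted p = 0.00257 by limma). No marker of either list was at 0 in every library of a group. Per kb, monocyte markers came to 56.7% ± 4.67 of the 9 granule genes in WT tumor and 38.1% ± 5.95 in IL-6 KO tumor, where the highest library was below the lowest of WT tumor, and to 12.2% ± 1.38 and 10.8% ± 3.89 in WT and IL-6 KO stroma. Lyz2 made up most of the monocyte counts in tumor (means of 1566 in WT and 3919 in IL-6 KO). The ratio in tumor thus mainly follows this gene of myeloid cells and is not a measure of monocytes alone. The part of contaminating myeloid cells in the tumor values was not tested.

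Of the other lists only that of the B lineage had calls in tumor. Of 5 macrophage markers and 7 tested erythroid markers 0 passed (limma; 1 and 0 with an unadjusted p under 0.05, beside 35.1% of all genes tested). Macrophage sums were between 236 and 409 in WT and between 191 and 283 in IL-6 KO tumor. Of 10 B-lineage markers 1 rose and 2 fell, namely Vpreb1 of the pre-B receptor (log2 fold change 0.53), the B-cell factor Ebf1 (-0.30) and the B-cell receptor inhibitor Cd22 (-0.54), with adjusted p of 0.00368, 0.0254 and 0.0283 by limma. Over all genes tested in tumor 19.8% were called in either direction. Nkg7 was the single T and NK marker listed (log2 fold change 2.01 ± 0.73 SE, adjusted p = 0.0794 by limma), at 15.4 to 23.7 normalized counts in IL-6 KO tumor and 0 to 9.47 in WT tumor. It too passed the filter on low values only through the IL-6 KO libraries. Of 4 eosinophil, basophil and mast cell markers 1 was listed in tumor, below the filter on low values. In stroma 0 genes of any list passed, beside 0.0082% of all genes tested. Median log2 fold changes there were 0.55 for mature neutrophil, 0.48 for monocyte, -0.68 for erythroid and -0.61 for B-lineage markers, beside -0.013 over all genes tested. Only 2 macrophage markers were tested in stroma. The summed erythroid markers were between 187970 and 229880 in WT and between 85878 and 400370 in IL-6 KO stroma, so the genotypes overlapped. The part of other cell types in the stroma values of the granule genes was not tested.

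**Figure D5:**
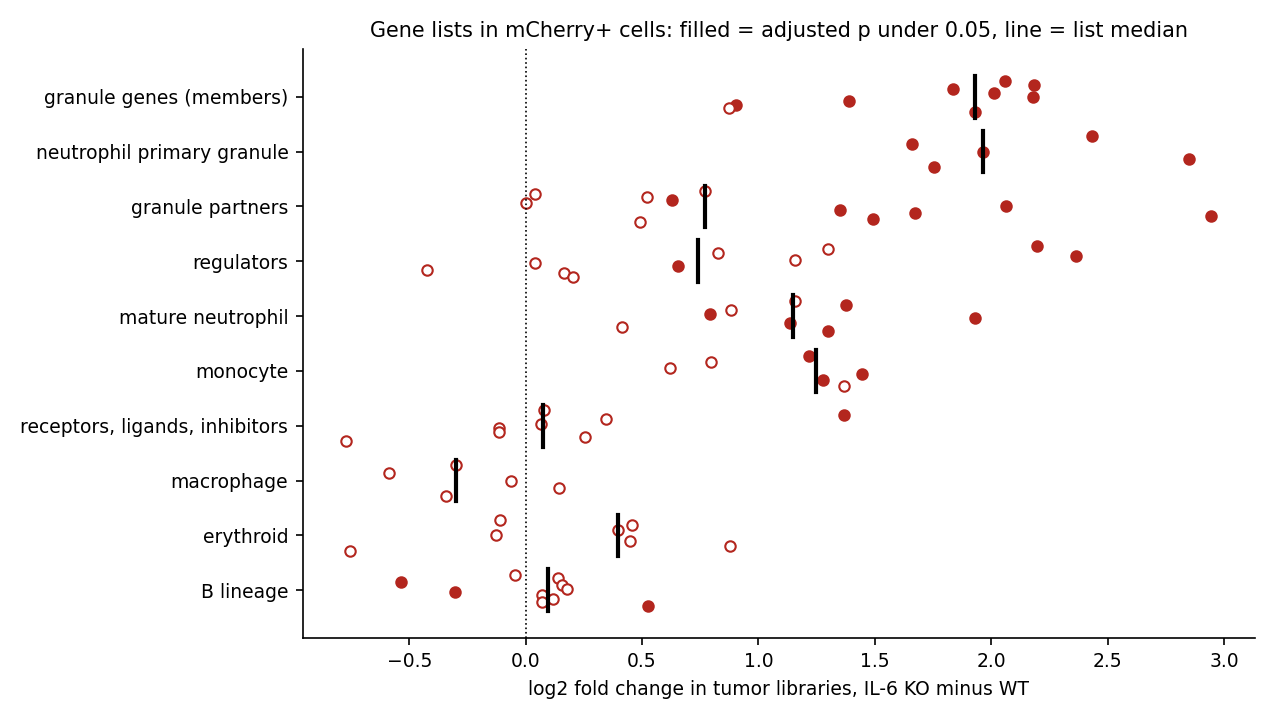
Log2 fold change in tumor (IL-6 KO minus WT) of every tested gene of the granule genes and of 9 other lists (the T and NK list, with 1 tested gene, and the eosinophil, basophil and mast cell list, with none, are not drawn), filled where the limma adjusted p is under 0.05, with a line at the list median. The 9 granule genes (median 1.93) and the 5 primary granule genes (median 1.97) have the highest medians of the lists drawn, and B-lineage genes lie around 0.

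The genes outside the 9 whose profile over the 8 libraries was most like their mean profile were named in each table by the smallest root-mean-square difference of centered log2 values. In tumor these were Prtn3 (0.159), Pglyrp1 (0.159), Anxa2 (0.207), Ckap4 (0.216) and Tyrobp (0.225), beside a median of 0.946 over 11224 genes. In stroma they were Nadk (0.184), Slfn2 (0.191), Slc35c2 (0.254), Arhgap9 (0.254) and Slfn4 (0.273), beside a median of 1.11 over 8068 genes. None of the 5 genes was shared between the compartments. Among the 9 genes themselves Ngp was closest to the mean profile in tumor (0.159) and Lcn2 in stroma (0.223), while Mmp9 in tumor (0.570) and Chil3 in stroma (1.23) were farthest.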

How the data were processed

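The authors sequenced RNA of sorted mCherry+ (tumor) and mCherry- (stroma) marrow cells, aligned reads to mm10, quantified them with Salmon 1.3.0 with its GC and sequence bias corrections, and normalized the estimates with DESeq2 1.28.1, per the submitters' processing notes and the study's methods. The deposited normalized counts of each compartment are a signal on the scale of reads, and whole reads could not be recovered from them, so edgeR and DESeq2 were not run and no interval that needs a read count is given. The deposited tables of the authors' own comparison (mean, fold change, test statistic and p-values per gene) were not used. No column of sample values was left out (0 columns).

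The labels gave the genotype, the compartment and the replicate number. Log2(normalized count + 1) of genes with a mean over 10 in a table was tested with limma 3.58.1 in R 4.3.3, with variances that follow the mean and genotype as the only term, two-sided, with Benjamini-Hochberg adjustment over all genes tested and a threshold of 0.05. Fold changes are on this log2 scale, which understates those of low genes. The tables were normalized separately, so each had its own fit, and between them only ratios within a library and ranks were set side by side. Levels per kb used the longest transcript of GENCODE vM21 (GRCm38), which listed 13062 of 13344 stroma genes and 14790 of 15080 tumor genes. Copies were searched with BLAST 2.17.0, and Python 3.11.15, pandas 2.3.3 and matplotlib 3.10.9 were used for the rest.

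All 9 granule genes are reported. Other lists were written from general knowledge, and up to 4 genes per list and table with the smallest p could be named with values. The genes, the lists and the rule were chosen with earlier results of these data known. Likeness used genes with a mean of at least 50. The fit was tested on simulated data before use. Alternatives were pseudocounts of 0.5 and 5, no filter or a mean over 50, quantile normalization, centering on the library median, array weights, a block for the replicate number, removal of the trend with GC content and length (loess, span 0.3), both together, and leaving out each library.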

Additional observations from a re-analysis of the deposited data

Results flagged for a closer look

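Cd177 in WT tumor library 1 stood at 174 normalized counts, apart from 160, 158 and 160 in WT tumor libraries 2, 3 and 4. The gap to the nearest library was 0.879 of the range of the group, above Dixon's critical value for 4 libraries at the 95% level. It was the single such case among the 36 groups of 4 values examined (9 genes in 4 groups), and chance alone gives about 1 in 20. All IL-6 KO tumor libraries were above it.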

How the results depend on the processing

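The number of granule genes called stayed at 0 of 9 in stroma under every alternative run and at 8 of 9 in tumor under every alternative that kept all libraries, and was between 7 and 9 in tumor with a library left out. Of 162 values of single genes in stroma, 151 kept direction and side of the threshold. The other 11 reversed, all for Mmp8 and Chil3: the log2 fold change of Mmp8 in stroma was -0.00066 with a pseudocount of 0.5, -0.0189 after quantile normalization, -0.0273 after centering on the library median and -0.0483 with array weights, and between -0.50 and 0.61 with a library left out, and that of Chil3 was between -0.78 and 1.23. In tumor 157 of 162 values kept both, 4 fell below the threshold (Mmp8 without single libraries) and 1 passed it (Mmp9 without IL-6 KO library 3). Within a compartment, deviations of same-numbered WT and IL-6 KO libraries from their group means were correlated. The correlations were between -0.03 and 0.126 in stroma and between -0.0186 and -0.000283 in tumor, and 0 of 8 pairs matched best. Such low values cannot show that the replicate numbers pair no libraries. Tumor and stroma libraries of the same number were not compared in this way. With the replicate block 8 of 9 granule genes were called in tumor and 0 in stroma, and 2230 genes in all in tumor. Over all genes the calls in stroma went from 1 to 4 with array weights and to 2 after removal of the GC and length trend, and with a library left out were between 1 and 3. In tumor 2870 became 4153 with array weights, 1779 after that removal and 1413 with the replicate block as well, and were between 1572 and 3328 with a library left out. Of 36 parts of the sum, 26 moved by more than 1 SD without division by length. The cause of these changes was not tested. Limits are 4 libraries per group, a depth that is not known for each library and the spread in stroma.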
